A study of Mus musculus with 27 samples.

Results

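The 78 genes described here are nuclear genes with an Mrpl or Mrps symbol, which encode the proteins of the mitochondrial ribosome. They are every row of the deposited gene table whose symbol is Mrpl or Mrps followed by a number and at most 1 further letter, 78 of 53379 rows. All 78 had enough RNA to be tested, among 20611 genes tested in all. The names were chosen by symbol and not by any measured value. Mrps36 carries the name although its protein is now known as a subunit of the alpha-ketoglutarate dehydrogenase complex.

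The cells were E14 mESCs, a line of mouse embryonic stem cells, grown on gelatin with LIF so that they stayed undifferentiated. Control cells received siRNA against eGFP (siGFP), which the cells have no gene for. Other cultures received siRNA against Ptbp1 (siPTBP1), or against Ptbp1 and Ptbp2 at once (siPTBP1+siPTBP2, the double knockdown below). Transfection was repeated after 24 h, and RNA was taken from cytoplasm (CY), nucleoplasm (NP) and chromatin (CH) at 48 h. Each of the 9 groups of treatment and fraction had 3 biological replicates, so 27 libraries of polyA+ RNA were compared. No group is a stable line, and the knockdown is partial.

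Mitochondria make a few membrane proteins of the respiratory chain on their own ribosome. Its RNAs are encoded in the mitochondrial genome, whereas all of its proteins are encoded in the nucleus, translated in the cytoplasm and imported. The large subunit (Mrpl) joins amino acids into the chain and the small subunit (Mrps) reads the mRNA. Some of the proteins have counterparts in the bacterial ribosome, and others were added in the course of mitochondrial evolution. PTBP1 is an RNA-binding protein that represses many exons and can hold transcripts with retained introns in the nucleus, and PTBP2 is its neuronal paralog. The series asks which transcripts depend on these proteins for their splicing and their place in the cell.

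Levels are in TPM, a length-corrected measure of the share of the polyA+ RNA of one fraction. TPM does not give RNA per cell, and in bulk RNA fewer cells of a kind cannot be told apart from less RNA per cell. How many reads stand behind a value is unknown, so no counting interval is given. Differences are log2 differences of TPM + 1 with their SE. Adjusted p is from limma over all 20611 genes with Benjamini-Hochberg adjustment, and a gene is called higher or lower where it is under 0.05. P-values set a difference against the spread between replicates within groups, which 1 fit estimates from all 9 groups together.

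The libraries fitted their labels in most respects. Ptbp1 in CY averaged 549 ± 56.2 TPM (SD, n = 3) in siGFP, 123 ± 18.1 after siPTBP1 and 142 ± 50.1 after the double siRNA treatment. The log2 differences from siGFP were -2.15 (adjusted p = 0.000853) and -1.99 (adjusted p = 0.00249). On CH it was not called (adjusted p = 0.160 and 0.367), except with replicate number as a block (0.00541 and 0.0303). Ptbp2 in CY had 11.3 ± 6.76 TPM in siGFP and 5.43 ± 3.45 in the double knockdown, a difference called only with the block (adjusted p = 0.00113). All 10 pluripotency markers were detected, and 6 of 6 nuclear noncoding RNAs were higher on CH than in CY. The summed TPM of 8 fibroblast markers lay between 7.66 and 18.8 in CY, between 32.6 and 77.9 in NP and between 51.2 and 159 on CH. Of these 8, Lum was at 0 in every CY and CH library but not in every NP library. In siGFP the 5 that could be tested were all called higher on CH than in CY. The sums of 5 trophoblast markers lay between 27.94 and 62.55 TPM in CY, 33.54 and 255.24 in NP and 24.69 and 542.74 on CH. Those of 5 neural progenitor markers lay between 11.02 and 33.81 in CY, 20.05 and 31.35 in NP and 38.83 and 97.56 on CH. Sums of 5 primitive endoderm markers reached 4.97 in CY, 8.45 in NP and 7.28 on CH. Mitochondrially encoded RNA took 9.31% to 22.5% of the TPM of NP libraries, against at most 0.111% in CY and 1.68% in CH. Replicate 1 stood apart from replicates 2 and 3 in every group, so the results that change without it are given with and without it.

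In CY of control cells the mitochondrial ribosomal protein genes were of moderate abundance. The 78 genes together made up 0.755% ± 0.00855 of the TPM (SD, n = 3). Their median was 76.9 TPM, and the lower and upper quartiles were 52.7 and 123 TPM, with Mrpl1 lowest at 7.46 and Mrpl15 highest at 337 TPM. By role the medians were 78.8 TPM for 29 large subunit proteins with a bacterial counterpart and 59.8 TPM for 20 without one. They were 81.0 TPM for 16 small subunit proteins with a counterpart and 85.9 TPM for 10 without. Mrps30 and Mrps18a, which are named for the small subunit but sit in the large one, and Mrps36 fell within the same range.

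Over all 27 libraries the most abundant were Mrpl17, at a mean of 231 TPM, Mrpl12, at 220 TPM, and Mrpl15, at 202 TPM. Mrpl17 and Mrpl15 are core proteins of the large subunit, and Mrpl12 forms its flexible stalk, which contacts translation factors. The least abundant were Mrpl1, at 8.20 TPM, Mrpl23, at 13.96 TPM, and Mrpl48, at 17.0 TPM. Mrpl1 belongs to the L1 stalk, through which used tRNA leaves. Mrpl23 and Mrpl48 have pseudogene rows of their own, described at the end, so their values are uncertain. The median coefficient of variation among replicates ran from 11.4% in siGFP CY to 33.7% in the double knockdown in CY.

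The promoters of these genes hold motifs known from other nuclear genes for mitochondrial proteins more often than promoters at large. The RefSeq promoter table (GRCm38.p6) had 75 start sites of 69 of the genes and 32851 start sites in all, each with 250 bases before and 50 after the start. It had no entry for Mrpl13, Mrpl15, Mrpl19, Mrpl38, Mrpl4, Mrpl54, Mrps28, Mrps34 and Mrps35. On either strand the NRF1 motif, GCGC and TGCGC with 1 base of any kind between them, was in 13 of 75 (17.3%) and in 4.60% of all promoters. CCGGAAG, the ETS motif bound by GABP, was in 26 (34.7%) and in 8.86% of all. AAGATGGCG, the YY1 motif, was in 8 (10.7%) and in 1.40% of all. CCAAT was in 30 (40.0%) against 37.4% of all, and TATAAA in 5 (6.67%) against 13.6%. The median GC content of the member promoters was 58.7% and that of all promoters 52.7%, and no search allowed for it. A match is a stretch of letters and not a bound site, since factor binding was not measured.

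Stretches from 4 of these promoters are shown because they belong to 2 of the most abundant genes, Mrpl12 and Mrpl17, and to 2 that are described further below, Mrpl34 and Mrps27. They are written 5′ to 3′ on the strand of the gene, and the motif is in capitals. Mrpl12 holds NRF1 at chr11:120484536-120484585 on the plus strand. Mrpl17 holds NRF1, read on the other strand, at chr7:105811107-105811156 on the minus strand. Mrpl34 holds ETS at chr8:71464869-71464915 on the plus strand. Mrps27 holds ETS, read on the other strand, at chr13:99344718-99344764 on the plus strand. All coordinates are GRCm38.
Mrpl12: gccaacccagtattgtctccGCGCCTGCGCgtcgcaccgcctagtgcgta
Mrpl17: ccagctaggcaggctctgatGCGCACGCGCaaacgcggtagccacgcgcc
Mrpl34: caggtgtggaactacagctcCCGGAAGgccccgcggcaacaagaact
Mrps27: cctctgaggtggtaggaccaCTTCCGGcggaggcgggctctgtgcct

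On chromatin of control cells the mitochondrial ribosomal protein RNAs made up a smaller share than in cytoplasm. The 78 genes together took 0.418% ± 0.0223 of the TPM on CH (SD, n = 3), and the median gene fell from 76.9 TPM in CY to 37.9 TPM on CH. Of the 78, 55 were called lower on CH, 3 higher, and 20 were not called. Over all genes tested 8.08% were lower and 57.9% higher. The median log2 difference was -1.08 for the 78 genes and 0.95 for all genes tested. The balance over all genes depended on the scaling. With quantile normalization 31.2% of all genes were lower and 23.9% higher (median -0.12), beside 72 of the 78 lower and 1 higher (median -1.90). After scaling by the median ratio to a reference library 21.8% of all genes were lower and 38.9% higher (median 0.34), beside 72 of the 78 lower and none higher (median -2.14). On TPM as deposited all 78 lay below the median of all genes (0.95), and 76 lay below the median of 14240 protein-coding genes (0.80). In the lowest decile of the coding genes, at -0.68 or less, were 57. The fibroblast markers moved the other way between the same libraries: 5 of 8 were tested and all 5 were higher on CH, Col1a1 with 63.9 ± 35.3 TPM against 1.03 ± 0.104 in CY. Their part in the members' differences was not tested.

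**Figure D1:**
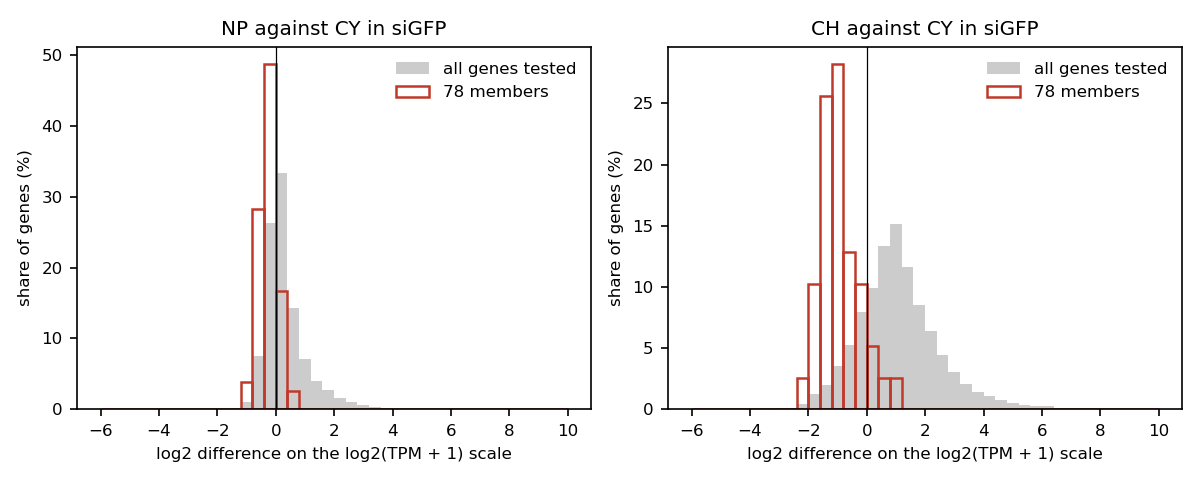
Share of genes in percent (y axis) by log2 difference of TPM + 1 between fractions of siGFP cells (x axis), NP minus CY and CH minus CY, for all 20611 genes tested and for the 78 mitochondrial ribosomal protein genes. For CH minus CY the members centre on a median of -1.08 and all genes on 0.95, and for NP minus CY on -0.30 and 0.15.

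Genes of every role were lower on CH, where 8.08% of all genes tested were lower and 57.9% higher. Of the large subunit proteins 18 of 29 with a bacterial counterpart were lower and 1 higher (median -1.16), and 16 of 20 without one were lower and 2 higher (-1.10). Of the small subunit proteins 12 of 16 with a counterpart (-1.02) and 6 of 10 without one (-1.04) were lower and none higher. Mrps30 and Mrps18a were both lower, as was Mrps36, with a difference of -1.32.

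Mrpl35 (ENSMUSG00000052962, chromosome 6, 71812997 to 71826969, minus strand, GRCm38), a core protein of the large subunit, had the lowest difference. It stood at 46.3, 53.6 and 64.1 TPM in CY of siGFP replicates 1, 2 and 3, at 29.0, 35.2 and 46.2 in NP and at 6.22, 12.5 and 11.2 on CH. The log2 difference was -2.38 ± 0.32 (SE, adjusted p = 1.78e-06). The genes named here were taken only where CH and CY libraries do not overlap, so the lack of overlap is no further support. Mrps18c (ENSMUSG00000016833, chromosome 5, 100798627 to 100804471, plus strand), the small subunit protein that corresponds to bacterial S18, had 63.5, 74.9 and 87.0 TPM in CY and 9.94, 21.7 and 19.1 on CH. The difference was -2.14 ± 0.35 (adjusted p = 1.75e-05). Mrpl16 (ENSMUSG00000024683, chromosome 19, 11770391 to 11774960, plus strand), which lies near the A site of the large subunit, had 67.0, 74.8 and 81.1 TPM in CY and 18.4, 15.0 and 22.1 on CH. Its difference was -1.96 ± 0.28 (adjusted p = 3.31e-06).

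Mrpl51 (ENSMUSG00000030335, chromosome 6, 125191801 to 125196269, plus strand), a protein without a bacterial counterpart, varied little between the siGFP replicates. Its libraries had 187, 185 and 192 TPM in CY, 149, 124 and 140 in NP and 56.0, 54.7 and 53.9 on CH. The difference between CH and CY was -1.76 ± 0.18 (adjusted p = 3.26e-08). Mrpl36 (ENSMUSG00000021607, chromosome 13, 73328513 to 73332178, plus strand), a very small zinc-binding protein, had 71.6, 79.3 and 85.3 TPM in CY and 24.4, 22.9 and 20.6 on CH, a difference of -1.76 ± 0.21 (adjusted p = 4.32e-07). Mrpl40 (ENSMUSG00000022706, chromosome 16, 18872018 to 18876862, minus strand) went from 105, 138 and 146 TPM to 30.7, 40.8 and 43.1 (-1.74 ± 0.37, adjusted p = 0.000328). In all 3 of these genes the CH libraries were below the CY libraries with no overlap, which the rule that named them requires.

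Mrpl15 and Mrpl17, both among the most abundant, were lower as well. Mrpl15 (ENSMUSG00000033845, chromosome 1, 4773206 to 4785739, minus strand) had 336, 357 and 319 TPM in CY and 104, 95.6 and 116 on CH (-1.68 ± 0.22, adjusted p = 1.11e-06). Mrpl17 (ENSMUSG00000030879, chromosome 7, 105803206 to 105811099, minus strand) had 353, 283 and 319 TPM in CY and 186, 63.1 and 79.5 on CH (-1.69 ± 0.43, adjusted p = 0.00161). The CH value of Mrpl17 in replicate 1 was more than that of replicates 2 and 3 together.

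The 3 genes called higher on CH were Mrpl38, Mrpl37 and Mrpl24 of the large subunit. With the replicate block, which takes out what replicates of one number share, 6 were called higher (65.4% of all genes tested), these and Mrpl1, Mrps9 and Mrps18b. Mrpl38 (ENSMUSG00000020775, chromosome 11, 116131817 to 116138868, minus strand), a protein of the central protuberance, had 124, 131 and 105 TPM in CY, 126, 113 and 109 in NP and 226, 223 and 205 on CH. The CH libraries stood above all others, by 0.86 ± 0.20 over CY (adjusted p = 0.000681). Mrpl37 (ENSMUSG00000028622, chromosome 4, 107055874 to 107066868, minus strand), which has no bacterial counterpart, had 87.4, 72.4 and 80.6 TPM in CY and 159, 119 and 135 on CH (0.77 ± 0.23, adjusted p = 0.00512). Both differences lay below the median of all genes, 0.95. After median-ratio scaling they were -0.21 and -0.30 and not called. With quantile normalization Mrpl37 was at 0.21 and not called (adjusted p = 0.503). Mrpl24 (ENSMUSG00000019710, chromosome 3, 87919506 to 87923672, plus strand), a protein that starts the folding of large subunit RNA in bacteria, had 104, 131 and 110 TPM in CY and 117, 196 and 197 on CH. Its groups overlapped (0.53 ± 0.22, adjusted p = 0.0421).

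**Figure D2:**
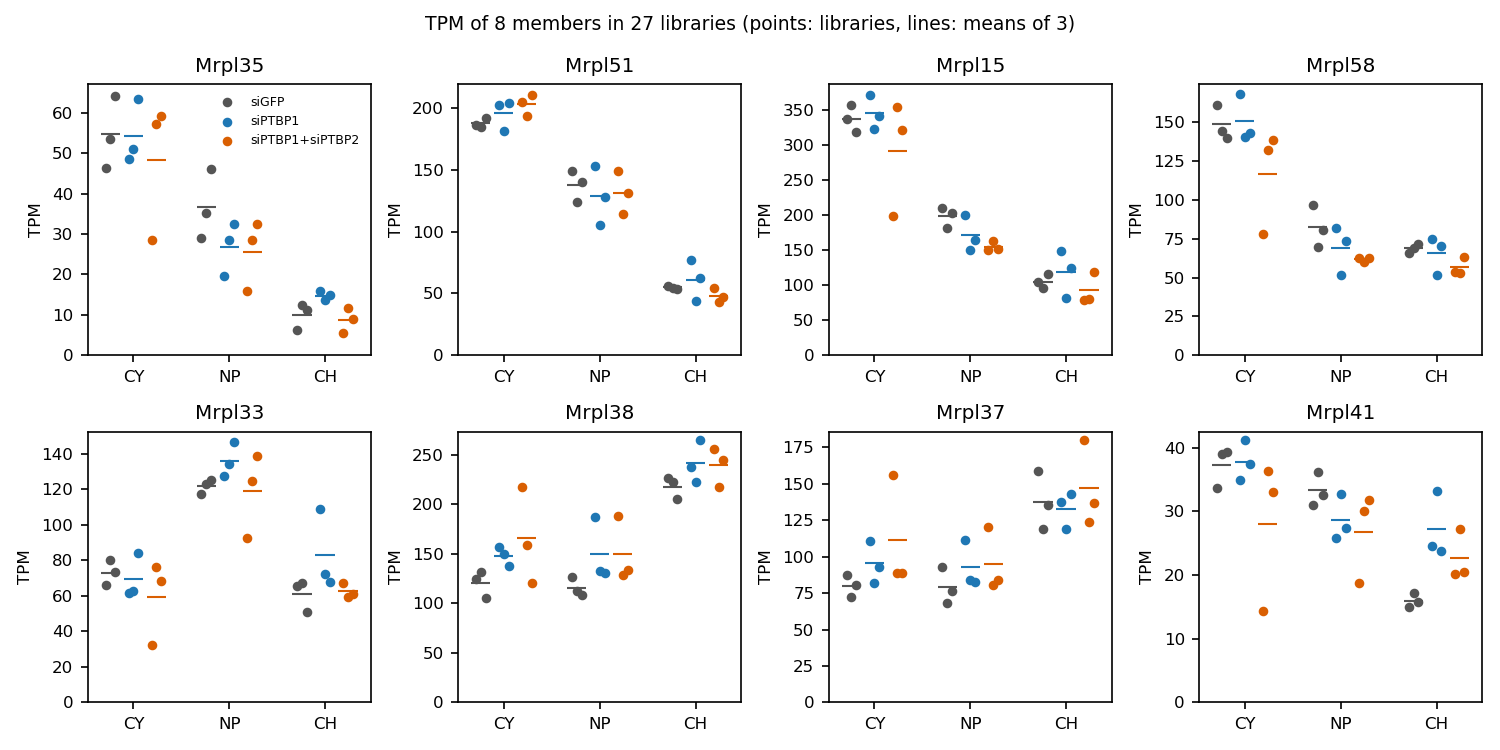
TPM (y axis, linear from 0) of 8 mitochondrial ribosomal protein genes in the 27 libraries, by fraction (x axis) and treatment (colour), with points for libraries and lines for means of 3. Mrpl35, Mrpl51 and Mrpl15 step down from CY to CH in each treatment, the mean of Mrpl38 is highest on CH, and that of Mrpl33 in NP.

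The comparison of CH with CY repeated in the knockdowns, which have libraries of their own. After siPTBP1 53 of the 78 were lower (8.82% of all genes tested) and 1 higher (57.8% of all), with a median of -0.97 against 0.97 for all genes. In the double knockdown 49 were lower (9.24% of all) and 2 higher (60.4% of all), with medians of -1.04 and 1.04. A total of 46 genes were lower in all 3 treatments, which is 83.6%, 86.8% and 93.9% of the lists of siGFP, siPTBP1 and the double knockdown. The share of all genes tested that was lower in all 3 is not given, so this repeat is not shown to be particular to the members. Mrpl38 was higher in all 3 on TPM as deposited. Its difference was 0.70 after siPTBP1 (adjusted p = 0.00365), and the double knockdown gave 0.57 (adjusted p = 0.0144). These knockdown calls were lost with quantile normalization (0.44, adjusted p = 0.0614, and 0.29, adjusted p = 0.209) and after median-ratio scaling, which turned the differences to -0.30 and -0.60 (adjusted p = 0.453 and 0.119). A fit of the compared groups only called no member higher in the double knockdown. Mrpl37 was higher in all 3 only with the replicate block, and so was Mrps9 (ENSMUSG00000060679, chromosome 1, 42851233 to 42905683, plus strand), a small subunit protein whose bacterial counterpart reaches the P site. With the block 65.2% and 66.9% of all genes were called higher on CH after siPTBP1 and the double knockdown. Mrps9 had 33.1, 65.3 and 58.7 TPM in CY of siGFP and 55.4, 125 and 102 on CH. Within each replicate number CH was above CY, but replicate 1 was lower in both fractions, and the difference was 0.81 ± 0.47 (adjusted p = 0.138, 0.000647 with the block).

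The difference between CH and CY followed the number of exons. Each gene was given the exon count of its protein-coding transcript with the longest coding sequence in GENCODE M21. For the 20 genes with 2 to 3 exons the median difference in siGFP was -1.40, and 18 were lower and none higher. For the 28 with 4 to 5 exons it was -1.14, with 24 lower and none higher. For the 30 with 6 or more it was -0.58, with 13 lower and 3 higher. Over all genes tested, of any exon number, 8.08% were lower and 57.9% higher. The shares of all genes in the same exon classes are not given. Mrpl36, with 2 exons, and Mrpl51, with 3, lay at one end, and Mrpl37, with 7, Mrpl38, with 9, and Mrps9, with 11, at the other. Mrps18c, with 6 exons and -2.14, departed from this order. Across the 78 genes Pearson's r was 0.604 and Spearman's rho 0.601. Genes are not independent replicates, and the points share their libraries, so these are descriptions.

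The order by exon number was present in each treatment. The medians of the 3 exon classes were -1.39, -1.0 and -0.50 after siPTBP1 and -1.62, -1.15 and -0.36 in the double knockdown, and Spearman's rho was 0.616 and 0.680. In siGFP it was 0.598 after median-ratio scaling, 0.618 after quantile normalization and 0.665 when the replicate 1 libraries were left out. Among 14203 protein-coding genes rho was 0.386, so the relation was not limited to the 78 genes. For other features Spearman's rho among the 78 was 0.506 for coding length, 0.336 for intron length, 0.122 for transcript length and 0.0402 for GC content. Among the coding genes it was 0.464, 0.244, 0.399 and -0.163 in the same order, so that coding length and transcript length had a higher rho there than exon number. The 78 genes are short beside coding genes at large, with a median of 5 exons against 9 and of 582 coding bases against 1368. An annotated transcript with a retained intron existed for 48 of the 78 (61.5%) and for 55.8% of coding genes. The median difference between CH and CY was -0.97 for the members with one and -1.23 for those without. TPM per gene counts spliced and unspliced RNA together, and intron retention was not analysed here.

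**Figure D3:**
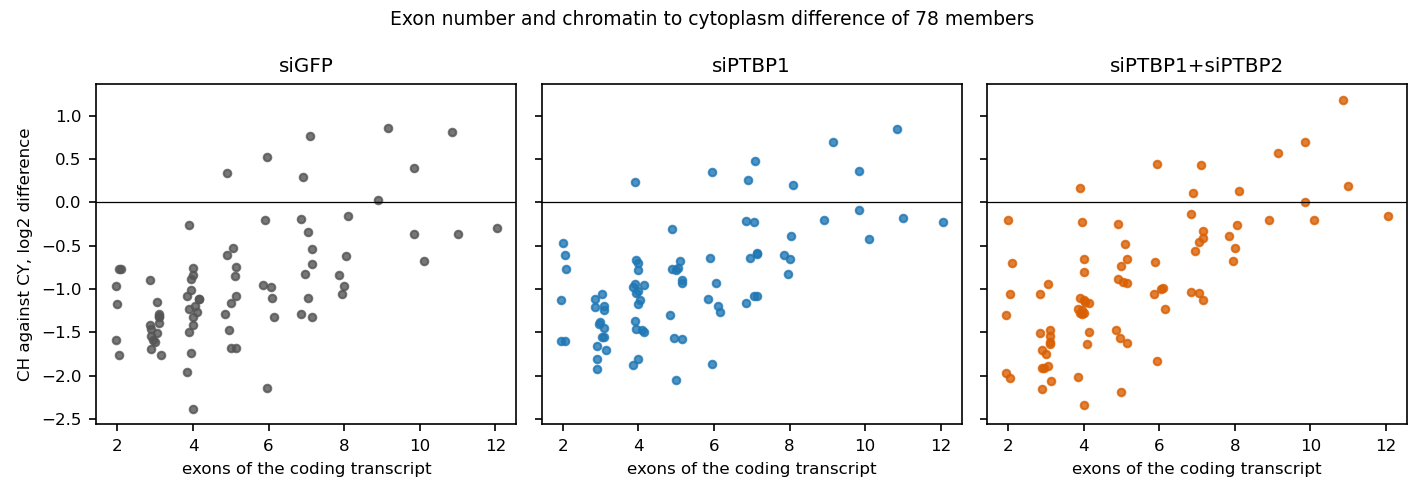
Log2 difference of TPM + 1 between CH and CY (y axis) against the number of exons of the coding transcript (x axis) for the 78 genes, in siGFP, siPTBP1 and the double knockdown, each point a gene, set slightly apart sideways where exon numbers are equal. Genes with 2 or 3 exons lie below 0 in each panel, and genes at or above 0 have more exons.

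In nucleoplasm the members differed less from cytoplasm. In siGFP the 78 genes took 0.623% ± 0.0418 of the NP TPM (SD, n = 3), and 2 were lower than in CY (0.461% of all genes tested) and none higher (12.3% of all). At an unadjusted p under 0.05 there were 16, a count given without the share of all genes and not read further. The median difference was -0.30 against 0.15 for all genes. With the replicate block 20 were lower (4.74% of all genes tested) and 2 higher (23.5% of all). Without the replicate 1 libraries 23 were lower (5.46% of all) and 1 higher (16.1% of all). Mitochondrially encoded RNA takes up a large part of the NP libraries. With TPM rescaled without it the median of the 78 genes was -0.10 and that of all genes 0.26, with 1 of the 78 lower (0.155% of all) and 1 higher (15.1% of all).

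The 2 genes called were Mrpl58 and Mrpl15. Mrpl58 (ENSMUSG00000018858, chromosome 11, 115403752 to 115412674, plus strand) encodes a peptidyl-tRNA hydrolase that became part of the large subunit. It had 161, 145 and 140 TPM in CY and 97.0, 69.6 and 81.0 in NP (-0.85 ± 0.21, adjusted p = 0.00697). On CH, at 65.6, 68.9 and 71.8 TPM, it was lower than in CY too (-1.10, adjusted p = 0.000104). Mrpl15 had 210, 182 and 203 TPM in NP (-0.77 ± 0.22 against CY, adjusted p = 0.0218). The call of Mrpl58 was lost without siGFP NP replicate 2 (adjusted p = 0.0552). That of Mrpl15 was lost without siGFP NP replicate 2 or 3 (0.101 and 0.0508), without siGFP CY replicate 1 or 2 (0.0663 and 0.0746), with quantile normalization (0.0761) and with TPM rescaled without mitochondrially encoded RNA (0.0844).

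After siPTBP1 19 genes were lower in NP than in CY (3.88% of all genes tested) and 1 higher (13.6% of all), with a median of -0.47 against 0.07 for all genes. In the double knockdown 15 were lower (4.66% of all) and 2 higher (15.4% of all), with a median of -0.44 against 0.12. With the block 40 were lower (13.5% of all) and 3 higher (22.2% of all) after siPTBP1, and 35 lower (12.5% of all) and 4 higher (25.7% of all) after the double knockdown. With TPM rescaled without mitochondrially encoded RNA 5 were lower (0.952% of all) and 3 higher (16.6% of all) after siPTBP1, and 5 lower (1.23% of all) and 4 higher (19.8% of all) after the double knockdown. Mrpl15 and Mrpl58 were lower in all 3 treatments, and with the block 19 genes were, with no share of all genes to set beside these counts. The largest differences were those of Mrpl12, -1.25 after siPTBP1 and -1.47 in the double knockdown. Whether the knockdowns changed the difference between NP and CY was tested on its own and is given below.

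Mrpl33 was on the other side of CY. Mrpl33 (ENSMUSG00000106918, chromosome 5, 31596935 to 31664384, plus strand) encodes a small protein of the large subunit with a bacterial counterpart. It had 65.9, 79.9 and 73.4 TPM in CY of siGFP, 117, 123 and 125 in NP and 65.5, 67.1 and 50.9 on CH. In siGFP NP was the highest fraction in every replicate, with a difference from CY of 0.74 ± 0.25 (adjusted p = 0.0567, 0.023 with the block). After siPTBP1 its libraries had 61.8, 62.5 and 84.1 TPM in CY and 127, 134 and 147 in NP (0.97, adjusted p = 0.00807). After the double knockdown they had 32.5, 76.5 and 68.2 TPM in CY and 92.8, 125 and 139 in NP (1.07, adjusted p = 0.00355). Mrps5 (ENSMUSG00000027374, chromosome 2, 127587222 to 127606829, plus strand), a small subunit protein of the mRNA entry channel, was the other gene called higher in NP, in the double knockdown (0.54, adjusted p = 0.0376). In siGFP its values overlapped, with 162, 200 and 159 TPM in CY and 223, 198 and 217 in NP.

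Between the nuclear fractions the members lay lower on chromatin. In siGFP 42 were lower on CH than in NP (5.48% of all genes tested) and 3 higher (46% of all), with a median of -0.77 against 0.68. After siPTBP1 31 were lower (5.65% of all) and 5 higher (51.4% of all), and in the double knockdown 32 lower (6.3% of all) and 5 higher (51.9% of all). With median-ratio scaling these became 61 lower after siPTBP1 (16% of all) and 60 lower in the double knockdown (16.2% of all), with none higher (30.2% and 31% of all). A total of 30 were lower in all 3 treatments, and Mrpl38 and Mrpl24 were higher in all 3. Here too the share of all genes that repeated in all 3 is not given. After siPTBP1 Mrps9 was 1.48 higher, Mrpl24 0.79, Mrpl38 0.70, Mrps10 0.56 and Mrps27 0.55, where Mrps27 is an RNA-binding protein of the small subunit. Spearman's rho with exon number was 0.657 in siGFP for CH against NP, and 0.0302 for NP against CY.

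The lowest differences between CH and NP in siGFP were those of 5 genes, Mrpl35, Mrpl34, Mrps33, Mrps36 and Mrpl36. Mrpl35 was lower by -1.81 (adjusted p = 8.65e-05) and Mrpl36 by -1.52 (adjusted p = 5.87e-06). Mrpl34 (chromosome 8, 71464959 to 71465747, plus strand), a core protein with 2 exons, had 213, 158 and 169 TPM in NP and 101, 46.9 and 35.1 on CH (-1.68 ± 0.40, adjusted p = 0.00156). Mrps33 (chromosome 6, 39801804 to 39810988, minus strand), a small subunit protein without a bacterial counterpart, had 45.9, 63.0 and 63.3 TPM in NP and 11.8, 21.1 and 20.2 on CH (-1.67 ± 0.37, adjusted p = 0.000836). Mrps36 (chromosome 13, 100735955 to 100744659, minus strand) had 58.0, 64.2 and 57.8 TPM in NP and 15.7, 25.03 and 18.6 on CH (-1.58 ± 0.24, adjusted p = 1.6e-05). The rule that named these 5 genes takes only genes whose CH and NP libraries do not overlap. The RNA of Mrps36, the protein outside the ribosome, was lower on CH too. Mrpl24 was higher on CH than in NP by 0.66 (adjusted p = 0.0179), a difference of -0.000815 with median-ratio scaling. Its call was lost without siGFP CH replicate 2 or 3 (0.0885 and 0.0886) and without siGFP NP replicate 1 (0.0546).

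The 3 genes named for S18 are given side by side. Mammals have 3 such proteins, one near the bacterial position (Mrps18c), one elsewhere in the small subunit (Mrps18b) and one in the large subunit (Mrps18a). Mrps18c, above, had the lowest difference after Mrpl35 between CH and CY. Mrps18a (ENSMUSG00000023967, chromosome 17, 46110986 to 46128910, plus strand) had 101, 94.1 and 94.7 TPM in CY, 80.7, 71.1 and 72.2 in NP and 59.1, 47.8 and 42.9 on CH, and was lower on CH (-0.95 ± 0.21, adjusted p = 0.000436). Mrps18b (ENSMUSG00000024436, chromosome 17, 35910379 to 35916389, minus strand) had 157, 128 and 152 TPM in CY, 237, 152 and 204 in NP and 222, 134 and 190 on CH. Its difference between CH and CY was 0.30 ± 0.27 and not called (adjusted p = 0.344). With the block it was called higher than in CY on CH of siGFP (adjusted p = 0.0334) and in NP of all 3 treatments. These differences between paralogs were not tested against each other.

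Without the replicate block no mitochondrial ribosomal protein gene was called after either knockdown in any fraction. With the block only Mrpl41 was called, on CH after siPTBP1, where 2.45% of all genes were. Over all genes tested 0.228% were called without the block after siPTBP1 in CY, 0.16% in NP and 0.398% on CH, in either direction. For the double knockdown these were 0.243%, 0.155% and 0.427%. At an unadjusted p under 0.05 limma gave 0, 0 and 3 of the 78 genes after siPTBP1 and 1, 0 and 0 in the double knockdown, in CY, NP and CH. These counts are given without the share of all genes, and no reading is drawn from them. The medians of the 78 genes after siPTBP1 were 0.07 in CY, -0.11 in NP and 0.12 on CH, beside 0.06, -0.01 and 0.09 for all genes. In the double knockdown they were -0.07, -0.20 and -0.06, beside 0, -0.01 and 0.07. The knockdowns share the siGFP libraries, so their values are given side by side and not set against each other.

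**Figure D4:**
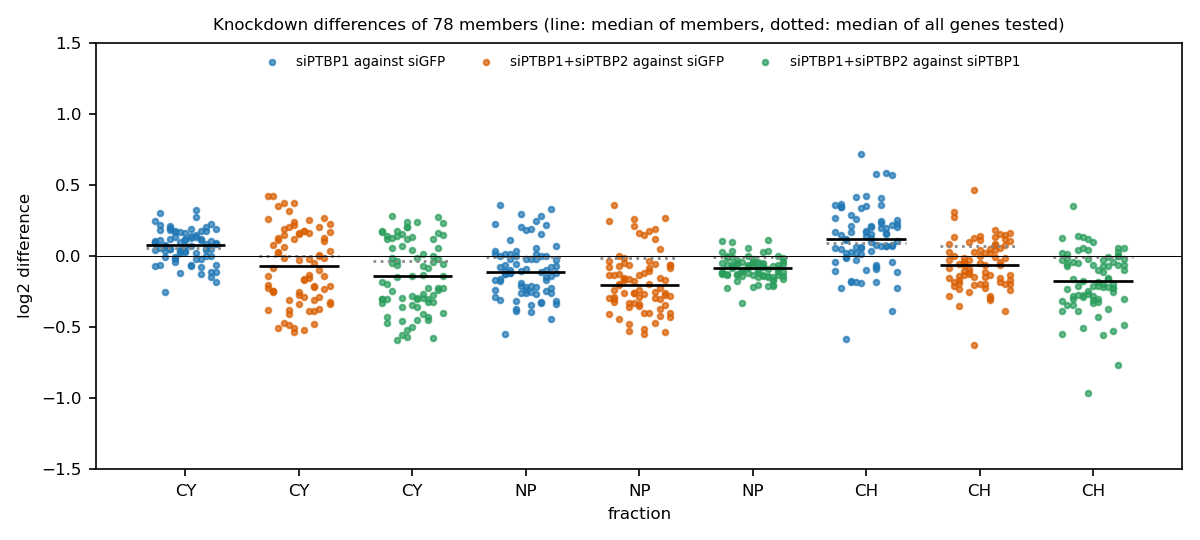
Log2 differences of TPM + 1 (y axis) of the 78 genes for siPTBP1 against siGFP, the double knockdown against siGFP and the double knockdown against siPTBP1 (colours), in CY, NP and CH (x axis). Points are genes, lines the medians of the 78 and dotted lines the medians of all genes tested; the medians of the 78 run from -0.20 to 0.12.

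The gene nearest to a call after siPTBP1 was Mrpl41 on CH. Mrpl41 (ENSMUSG00000036850, chromosome 2, 24974117 to 24975098, minus strand) is a large subunit protein without a bacterial counterpart and has 2 exons. On CH it had 15.0, 17.2 and 15.8 TPM in siGFP, 24.6, 33.2 and 23.8 after siPTBP1 and 20.2, 27.3 and 20.4 in the double knockdown. All knockdown values lay above all control values, but the difference after siPTBP1, 0.72 ± 0.26, passed only with the block (adjusted p = 0.402, 0.0455 with the block, where 2.45% of all genes were called). The double knockdown gave 0.47 (adjusted p = 0.863). In CY of siGFP Mrpl41 had 33.7, 38.9 and 39.3 TPM. Next on CH after siPTBP1 came Mrps36 with 0.58 (adjusted p = 0.595) and Mrpl23 with -0.58 (adjusted p = 0.711).

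In the other fractions the smallest p-values belonged to genes with small differences. After siPTBP1 they were Mrpl38 with 0.30, Mrps36 with 0.28 and Mrpl37 with 0.24 in CY, and Mrpl38 with 0.36, Mrps5 with 0.28 and Mrpl2 with 0.33 in NP. For the double knockdown they were Mrpl38 with 0.42, Mrpl41 with -0.50 and Mrpl58 with -0.39 in CY, and Mrpl49 with -0.41, Mrpl58 with -0.40 and Mrpl38 with 0.36 in NP. Every one of these had an adjusted p of at least 0.978. On CH of double knockdown cells Mrps33 had 9.01, 11.5 and 11.9 TPM beside 11.8, 21.1 and 20.2 in siGFP, a difference of -0.63 (adjusted p = 0.900). Without the replicate 1 libraries that difference was -0.77 (adjusted p = 0.00971). After siPTBP1 alone Mrps33 had 32.7, 15.8 and 20.2 TPM on CH, where replicate 1 was the highest and not the lowest.

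Adding siRNA against Ptbp2 to that against Ptbp1 called none of the 78 genes. Over all genes 0% were called in CY, 0.00485% in NP and 0.107% on CH. At an unadjusted p under 0.05 limma gave 1, 0 and 5 of the 78, given without the share of all genes and not read further. The medians of the 78 genes were -0.14, -0.09 and -0.18, beside -0.04, -0.01 and -0.01 for all genes. On CH the smallest p-values were those of Mrps33 with -0.96, Mrps14 with -0.55 and Mrpl35 with -0.77, each with an adjusted p of 1. In CY they were those of Mrps27 with -0.43, Mrpl41 with -0.52 and Mrpl58 with -0.41.

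Whether a knockdown changed the place of these RNAs was tested as the difference between its effects in the fractions, and none of the 78 genes was called. Over all genes 0.00485% were called for NP minus CY and 0.0437% for CH minus CY after siPTBP1, and 0.00485% and 0.0582% in the double knockdown. For CH minus CY the medians of the 78 genes were 0.07 and 0.01, beside -0.00 and 0.07 for all genes. For NP minus CY they were -0.20 and -0.12, beside -0.09 and -0.02. The gene with the smallest p for CH minus CY was Mrpl41, with 0.70 after siPTBP1 and 0.97 in the double knockdown (adjusted p = 1). At an unadjusted p under 0.05 limma gave 0 and 0 of the 78 for NP minus CY and CH minus CY after siPTBP1, and 0 and 1 in the double knockdown. For these counts too the share of all genes is not given. The larger counts of genes lower in NP than in CY after the knockdowns thus came without a gene whose difference was called as changed. A p that misses the threshold does not show that the effects were equal.

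Replicate 1 differed from replicates 2 and 3 in these genes. Taken over the 9 groups, 40 genes were higher in replicate 1 and 38 lower. In replicate 1, 18 had their highest value in all 9 groups and 8 their lowest in all 9. The shares of all genes tested are not given, so these counts are not shown to be particular to the members. The highest were Mrpl12, 0.84 above replicates 2 and 3, Mrpl54 with 0.83, Mrpl34 with 0.78 and Mrpl17 with 0.76. The lowest were Mrps31 and Mrps22, both -1.09, and Mrpl32, -1.06, which is cut to its mature form by a mitochondrial protease. The difference followed the GC content of the coding transcript, with Pearson's r of 0.587 and Spearman's rho of 0.590 across the 78 genes and 0.733 across 14203 coding genes. The labels do not say what a replicate number stands for. Every group has 1 library of each number, so the replicate block takes out of the spread the part of this difference that all groups share. In some genes the difference varied by fraction. It was 0.42 in CY and 1.33 on CH for Mrpl17, and -0.64 and 0.33 for Mrpl27. For Mrpl2 it was 0.37 and 0.41. The block does not take out such variation between fractions.

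**Figure D5:**
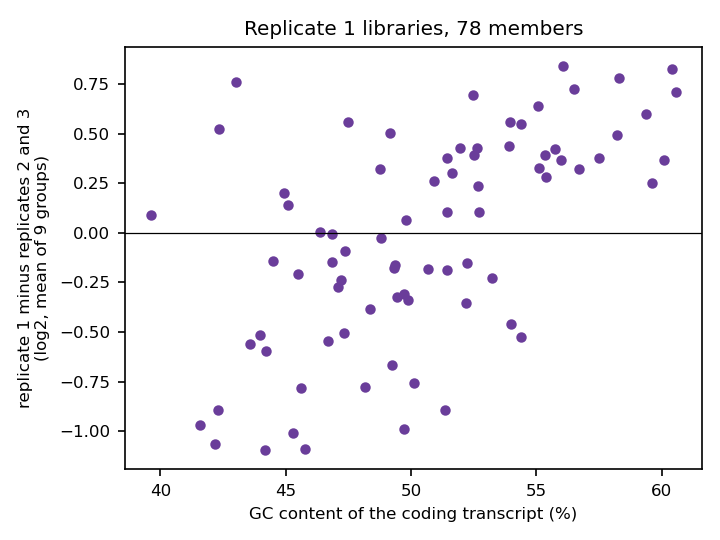
Log2 difference of TPM + 1 between replicate 1 and the mean of replicates 2 and 3, averaged over the 9 groups (y axis), against the GC content of the coding transcript in percent (x axis), each point one of the 78 genes. Genes of low GC content lie mostly below 0 and genes of high GC content above it, from -1.09 for Mrps31 to 0.84 for Mrpl12.

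Other proteins of the mitochondrial translation system were not all placed like the Mrpl and Mrps genes. Of 5 mitoribosome proteins under other names 3 were lower on CH than in CY of siGFP and 1 higher (median -1.39). Aurkaip1 went from 168 ± 16.3 TPM to 59.9 ± 24.2 (-1.54, adjusted p = 0.000372), Chchd1 from 137 ± 11.3 to 39.2 ± 11.8 (-1.82, adjusted p = 0.000142) and Gadd45gip1, which is also the cell cycle protein CRIF1, from 54.0 ± 4.41 to 20.2 ± 4.43 (-1.39, adjusted p = 3.24e-05). Ptcd3, an RNA-binding protein of the small subunit, was higher on CH, at 288 ± 94.5 against 48.4 ± 20.1 TPM (2.57, adjusted p = 0.000465). Dap3, the GTP-binding protein of the small subunit, had 135 ± 17 and 121 ± 13.5 TPM (adjusted p = 0.431).

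Factors that build the ribosome lay between the members and all genes by their median. Of 23 assembly and rRNA modification factors 11 were higher on CH, 2 lower and 10 not called (median 0.44), beside 57.9% higher and 8.08% lower of all genes tested. Mettl17, an assembly factor of the small subunit, rose from 11.4 ± 0.644 TPM in CY to 112 ± 27.7 on CH (3.17, adjusted p = 4.94e-11), and Dhx30, an RNA helicase, from 76.8 ± 5.78 to 210 ± 36.9 (1.43, adjusted p = 4.66e-07). Of 17 translation factors tested 6 were higher and 6 lower (median 0.07), among them Gfm2, a recycling factor (1.41, adjusted p = 8.61e-05), and Slirp, which stabilises mitochondrial mRNA (-2.03, adjusted p = 0.000240). Of 12 genes of mitochondrial transcription and the nucleoid 7 were higher and none lower (median 0.90), with Polrmt, the mitochondrial RNA polymerase, at 107 ± 22.3 against 13.5 ± 3.74 TPM (2.90, adjusted p = 9.36e-09). These medians stand beside 0.95 for all genes tested.

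The subunits of other large complexes were nearer to the members in the comparison of CH with CY. Of 43 nuclear-encoded subunits of oxidative phosphorylation 26 were lower on CH and 2 higher (median -0.82), with Ndufb10 of complex I at 49.1 ± 3.18 against 163 ± 1.82 TPM (-1.71, adjusted p = 3.43e-08). Of 84 cytosolic ribosomal protein genes 74 were lower and 3 higher (median -1.77). The counts for siPTBP1 were 23 lower and 2 higher, and 73 lower and 6 higher, and for the double knockdown 28 and 3, and 73 and 5. For NP against CY in siGFP the oxidative phosphorylation subunits had a median of 0.04, with 7 higher and 1 lower. The cytosolic ribosomal protein genes had -0.51, with 0 higher and 9 lower. The members had -0.30, with 0 higher and 2 lower, and of all genes 12.3% were higher and 0.461% lower. No difference between these lists and the 78 genes was tested.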

How the data were processed

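PolyA+ RNA of 27 libraries was measured with stranded sequencing. The authors deposited one table of TPM per gene. STAR and kallisto on mm10 are named in the submitters' processing notes, without versions, and neither those notes nor the labels give the annotation release. TPM keeps no depth, so precision rests on the 3 replicates of each group. The members and lists were chosen with earlier results of these data known.

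From the table, the 20611 of 53379 genes that reached a TPM of 1 in 3 or more libraries were tested. The values log2(TPM + 1) went into limma (version 3.58.1, R 4.3.3; trend and robust settings, 1 mean per group, 18 residual degrees of freedom, two-sided), and genes were called at a Benjamini-Hochberg adjusted p under 0.05. The script was tested on simulated data. The pseudocount of 1 understates the change of low genes. Coordinates and exons are from GENCODE M21 (GRCm38, the assembly of mm10), and promoters from RefSeq GRCm38.p6.

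Whether replicate numbers pair the libraries was checked from deviations from the group means. For the 108 pairs that share a number it was at least 0.130 (median 0.365) as a correlation, and all 27 libraries correlated best with one of their own number, so the numbers were taken as pairing them. The pairing comes from the data and not from the labels. Blocked values (16 residual degrees of freedom) are given where they change a call or a count by over 1.5 times.

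Genes were named by a rule. For NP and CH against CY in siGFP it takes the 8 largest differences in each direction among called genes whose libraries do not overlap, and 5 for CH against NP. For the knockdowns it takes called genes or, failing these, the 3 smallest p-values, and genes called only with the block. The 3 highest and 3 lowest means, and up to 4 genes of each other list, were added. Some genes the rule names are left out for length, and Mrpl24 in CH against CY, Mrpl33, Mrps5, Mrps9, the other Mrps18 genes, Dap3 and the genes of the replicate 1 comparison were chosen after their values were seen. Alternatives were the replicate block, median-ratio scaling, quantile normalization, a pseudocount of 0.1, no filter on low values, a fit of the compared groups only and leaving out each library. Leaving out replicate 1 and rescaling without mitochondrially encoded genes were added after seeing the data.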

Additional observations from a re-analysis of the deposited data

How the results depend on the processing

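Under the alternatives 297 counts of members called were within 1.5 times the count above and 35 were not. Among values of named members 876 kept their direction and their side of the threshold, 17 lost their call, 2 gained one and 3 turned. The number called in NP against CY of siGFP, 2, was 22 with the replicate block, 20 with median-ratio scaling, 6 after quantile normalization, 4 with a pseudocount of 0.1 or with the compared groups only, and 24 without the replicate 1 libraries. For siPTBP1, 20, it was 43 with the replicate block, 41 without replicate 1 and 8 with TPM rescaled without mitochondrially encoded genes. For the double knockdown, 17, it was 39 with the replicate block, 31 with median-ratio scaling, 11 with no filter and 0 with the compared groups only. It was 45 without replicate 1 and 9 with TPM rescaled. In CH against NP the 45 of siGFP were 68 with quantile normalization. The 36 of siPTBP1 were 61 and 65 with median-ratio scaling and quantile normalization and 55 without replicate 1, and the 37 of the double knockdown were 60 and 65 with those scalings. The replicate block called 1 gene on CH after siPTBP1, Mrpl41, and leaving out replicate 1 called 1 on CH of the double knockdown, Mrps33. The differences that turned with median-ratio scaling were those of Mrpl38 (-0.21) and Mrpl37 (-0.30) for CH against CY and of Mrpl24 (-0.000815) for CH against NP. The counts of members in this paragraph take both directions together. The settings also moved the shares of all genes. For CH against NP after siPTBP1 5.65% of all genes were lower and 51.4% higher. With median-ratio scaling these were 16% and 30.2%. The shares of all genes are not given for every setting, so the changes are not shown to be particular to the members. Their cause was not tested.

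Leaving out 1 library at a time gave 0 to 3 members called in NP against CY of siGFP, 0 without NP replicate 2 and 1 without NP replicate 3, CY replicate 1 or CY replicate 2. It gave 7 to 22 for siPTBP1 (7 without NP replicate 2, 12 without NP replicate 3, 11 without CY replicate 1, 10 without CY replicate 3) and 6 to 24 for the double knockdown (6 without NP replicate 2, 11 without NP replicate 3, 10 without CY replicate 3). In CH against CY it gave 52 to 54, 43 to 53 and 47 to 58, and in CH against NP 38 to 44, 18 to 40 (18 without siPTBP1 CH replicate 2) and 33 to 40. No member was called in a knockdown comparison when 1 library was left out.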

Other observations

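Of the genes with a pseudogene row of their own, Mrpl23 stood lower than its pseudogene. The row Mrpl23-ps1 was at 123 ± 19.1 TPM in CY of siGFP, 78.9 ± 17.0 in NP and 29.9 ± 9.95 on CH (SD, n = 3), whereas Mrpl23 itself, which encodes a protein at the exit of the large subunit's tunnel, had 19.8, 10.8 and 10.7 TPM in CY and 19.2, 17.7 and 14.3 on CH. The row Mrpl48-ps was at 12.2 ± 1.88 TPM in CY. Reads of a gene and a near-identical copy cannot be told apart with certainty in gene values, so the levels and the fraction differences of Mrpl23 and Mrpl48 are uncertain. The 3 pseudogenes of Mrps36 had at most 1.18 TPM in any library.

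For 18 of the 78 genes (23.1%) another protein-coding gene started at most 1 kb upstream and ran the opposite way, against 9.53% of 14203 coding genes. Mrpl37, Mrpl40, Mrpl41 and Mrpl51 were among the 18. Opposite genes whose first parts overlap, such as Mrps11 and Mrpl46, were not counted. The median difference between CH and CY in siGFP was -0.93 for these 18 and -1.09 for the others. Mrpl53, Mrps24, Mrps34 and Mrps6 overlap another gene on the same strand, so reads in the overlap cannot be assigned with certainty. The 78 genes lie on 17 chromosomes, with 11 on chromosome 11 and 8 on chromosome 17.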
